A study of Mus musculus with 8 samples.

Results

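The 9 genes described here encode parts of the Notch pathway: the receptors Notch1 and Notch2, the gamma-secretase subunits Aph1a, Ncstn and Psenen, the endocytic adaptor Numb, the DNA-binding protein Rbpj, the co-activator Maml1 and the target gene Hes1. They were taken by name, without regard to their measured values, from 18174 gene symbols in 8 tables of single-cell transcripts. The cells were long-term hematopoietic stem cells (LT-HSC), the marrow cells that sustain blood formation over a lifetime. They came from bone marrow of untreated wildtype male C57BL/6J mice aged 18 months, and were sorted by flow cytometry for the surface phenotype Lin-CD150+CD48-CD34-Kit+Sca1+, split by the protein Dlk1 into Dlk1+ and Dlk1- cells. Each group had 4 libraries. RNA was read with mCEL-Seq2, which counts the 3' ends of polyadenylated RNA by unique molecular identifier (UMI), so that a longer transcript does not give more counts. Which animals stand behind a library is not given, so p-values measure the spread between libraries, which may be technical. Marrow from several bones was pooled, both groups are of the same age and genotype, and no young or Notch-blocked cells are part of the comparison.

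Notch receptors sit in the cell membrane and bind ligands of the Delta and Jagged families on neighbouring cells. Binding lets an ADAM protease and then gamma-secretase cut the receptor, and the freed intracellular domain joins Rbpj and a Mastermind protein on DNA to activate targets such as Hes1, a transcriptional repressor. Numb counters the pathway by steering receptors into endocytosis. Dlk1 resembles the Delta ligands but lacks the domain with which they bind Notch, and is called a non-canonical ligand. Notch signalling directs blood progenitors to the T lineage and is needed for the first hematopoietic stem cells of the embryo, while its part in adult stem cells of the marrow has been debated.

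Between 26 and 96 cells per library were kept, 220 Dlk1+ and 321 Dlk1- cells in all, with 38488 to 496831 UMIs per library. Dlk1+ replicate 3 was the shallowest, with a median of 1300 transcripts per cell against 3421 to 5584 in the other 7 libraries. All 10 transcripts of the LT-HSC marker list, among them Kit, Ly6a, Procr and Mecom, had UMIs in all 8 libraries. Of the 2 genes whose proteins were sorted against, Cd48 had 5 UMIs, all in 1 cell, and Cd34 had UMIs in 7 libraries. That cell, in Dlk1+ replicate 4, carried 1871 of the library's 1884 UMIs of the myeloid list and 8.07% of all its UMIs, with 0 Mecom and 0 Dlk1 UMIs. The T cell genes Cd3e, Cd4 and Cd8a and the B cell gene Pax5 had no row and were not analysed here. Levels are given as CPM, transcripts in 1000000 of the library's scaled total. The summed stroma list ranged from 29.4 to 113.7 CPM in the Dlk1+ libraries and from 17.3 to 37.6 CPM in the Dlk1- ones, and the erythroid list from 47.4 to 125.3 and from 18.8 to 77.9 CPM. The endothelium list, which holds genes that stem cells also express such as Emcn, ranged from 242.8 to 437.8 and from 214.2 to 239.6 CPM, with groups that did not overlap. The groups overlapped in the T cell, B cell, myeloid, megakaryocyte and liver lists. The part of these lists in the Notch values was not tested. The RNA of the sorted protein, Dlk1, had a mean of 499.5 CPM (SD 126.5, n = 4) in the Dlk1+ group and of 28.3 CPM (SD 23.3, n = 4) in the Dlk1- group. Plate numbers, read from the names of the tables, put replicates 1 and 2 of both groups on plate 5 and replicates 3 and 4 on plate 6. No 2 cells of different libraries held identical values. The libraries reuse barcode numbers as well numbers: 8 numbers were kept in all 4 Dlk1+ and 35 in all 4 Dlk1- libraries, and 0 in both groups.

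The LT-HSC held RNA for every step of the pathway from receptor to nuclear complex, but little of the canonical ligands. All 9 genes were detected in at least 7 of the 8 libraries. Psenen gave 307 UMIs over all cells. In Dlk1+ and Dlk1- cells, Notch2 gave 50 and 98 UMIs, Ncstn 33 and 72, and Hes1 23 and 44. Rbpj gave 40 UMIs in the Dlk1+ cells. Over both groups Aph1a gave 48, Maml1 41, Notch1 39 and Numb 34 UMIs. As a mean over 8 libraries, the levels ran from 130.9 ± 38.9 CPM for Psenen to 11.1 ± 7.88 CPM for Notch1 (SD, n = 8). Psenen lay above the gene next in order, Notch2, in 8 of 8 libraries. Below it the order was loose: Notch2 was above Rbpj in 4 of 8 libraries, Ncstn above Hes1 in 4 of 8, and Maml1 above Numb in 3 of 8. The 4 lowest genes, Aph1a, Maml1, Numb and Notch1, had means between 11.1 and 16.8 CPM, each within 1 SD of the next.

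**Figure D1:**
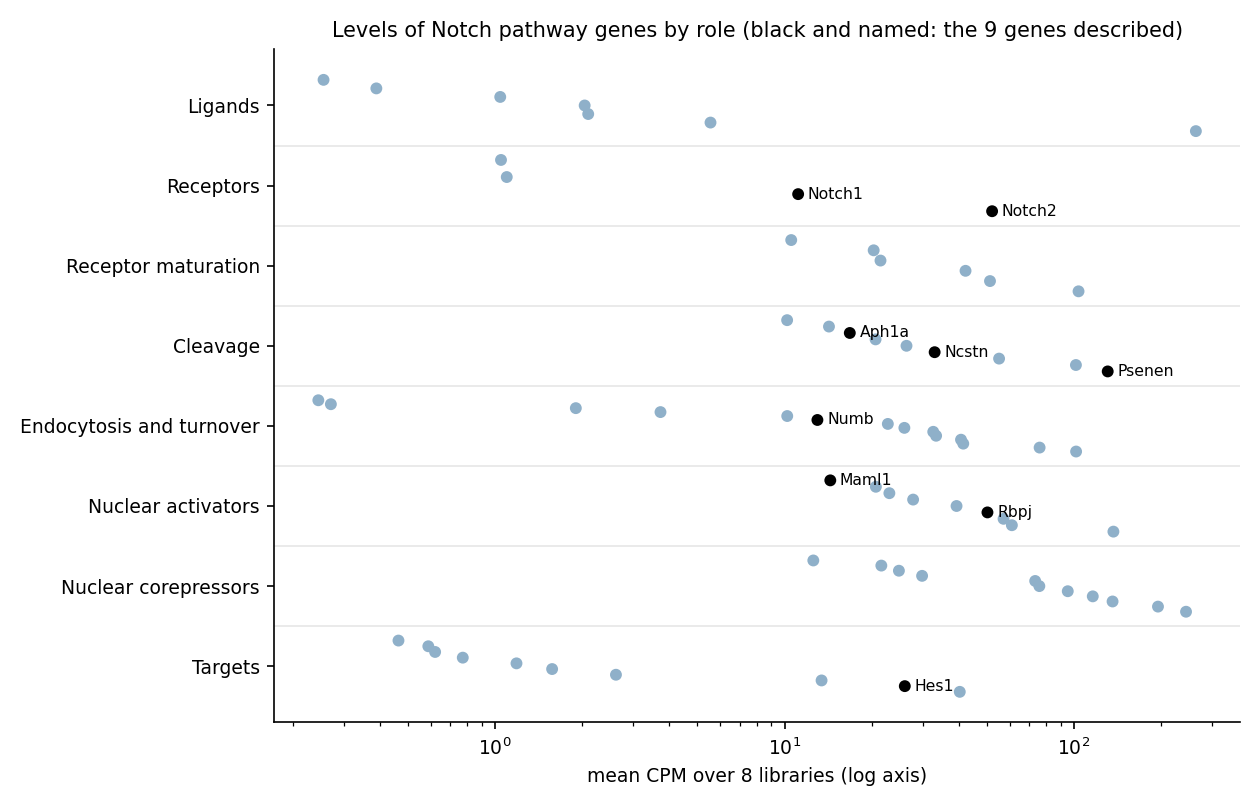
Mean level of each Notch pathway gene with a UMI over 8 libraries, in CPM on a log axis, arranged by role; the 9 genes described are black and named. The right-most ligand is Dlk1 at 263.9 CPM, a mean over both sorts (499.5 CPM in Dlk1+ and 28.3 CPM in Dlk1-). The ligand next below it, Jag2, is at 5.55 CPM.

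The gene list of the pathway, arranged by role, held 76 genes, of which 70 had UMIs. Of 8 ligands, Dlk1 accounted for 573 of the 614 UMIs, 530 of them in Dlk1+ and 43 in Dlk1- cells. The cells were sorted by Dlk1 protein, so this share depends on how many Dlk1+ cells were pooled. Jag2 had 19 UMIs, Dll4 and Jag1 8 each, Dll1 4, and Dll3 and Dlk2 1 each. Among the enzymes that modify or cut the receptor, the sugar transferase Mfng lay at 103.7 ± 42.7 CPM, the protease Adam10 at 101.6 ± 45.7 CPM and the catalytic gamma-secretase subunit Psen2 at 55.1 ± 20.3 CPM (SD, n = 8 libraries). The processing enzyme Furin lay at 51.3 ± 14.8 CPM and the fucosyltransferase Pofut1 at 42.2 ± 15.5 CPM. The co-activator Crebbp lay at 136.9 ± 23.7 CPM. Among the corepressors, which bind target genes when no receptor fragment is present, Ncor1 lay at 244.0 ± 60.6 CPM and Spen at 195.2 ± 94.3 CPM. Of the 10 target genes with UMIs, the highest were Gata3 at 40.3 ± 28.5, Hes1 at 26.04 ± 15.4 and Hes6 at 13.4 ± 8.26 CPM. Hes5, Hey1, Heyl and Hes7 had 1 or 2 UMIs each. No UMI was counted in the kept cells under the names Hey2, Nrarp, Il2ra, Dner, Dtx1 and Tle5. A gene without a row under its name would read the same, so their absence from the cells was not shown.

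Of the receptors, Notch2 gave the more UMIs. The Notch2 gene (GRCm38 chromosome 3, 98013527 to 98150361, plus strand) had 18, 4, 2 and 26 UMIs in Dlk1+ replicates 1 to 4 and 27, 11, 27 and 33 in the Dlk1- replicates. As levels these were 55.9, 37.9, 46.1 and 50.9 CPM in the Dlk1+ libraries and 55.1, 51.7, 58.4 and 61.1 CPM in the Dlk1- ones. The groups overlapped, and the spread was the smallest, relative to its mean, of the 9 genes. The log2 fold change of Dlk1+ over Dlk1- was -0.15 (SE 0.27, 95% CI -0.71 to 0.42), with an adjusted p of 0.938 by limma-voom over all 5666 genes tested. The regions Gm42819 and Gm42820 overlap Notch2 on the same strand in the annotation and had 15 and 26 UMIs of their own.

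The Notch1 gene (chromosome 2, 26457903 to 26516663, minus strand) was too low to be tested. It had 1, 1, 0 and 8 UMIs in Dlk1+ and 8, 1, 9 and 11 UMIs in Dlk1- replicates 1 to 4, or 7.06 ± 6.96 and 15.2 ± 7.23 CPM (SD, n = 4 each). The library with 0 UMIs, Dlk1+ replicate 3, allows up to 69.1 CPM (3 counts at its depth), more than any other library showed. Of the 8 Notch1 UMIs in Dlk1+ replicate 4, 2 came from the myeloid-marker-rich cell. Notch2 gave 3.79 times the summed UMIs of Notch1 and had the higher count in 8 of 8 libraries, though 2 UMIs against 0 in Dlk1+ replicate 3 are both under the 3-count level and do not order them there. Notch3 and Notch4 had 3 and 4 UMIs in all.

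**Figure D2:**
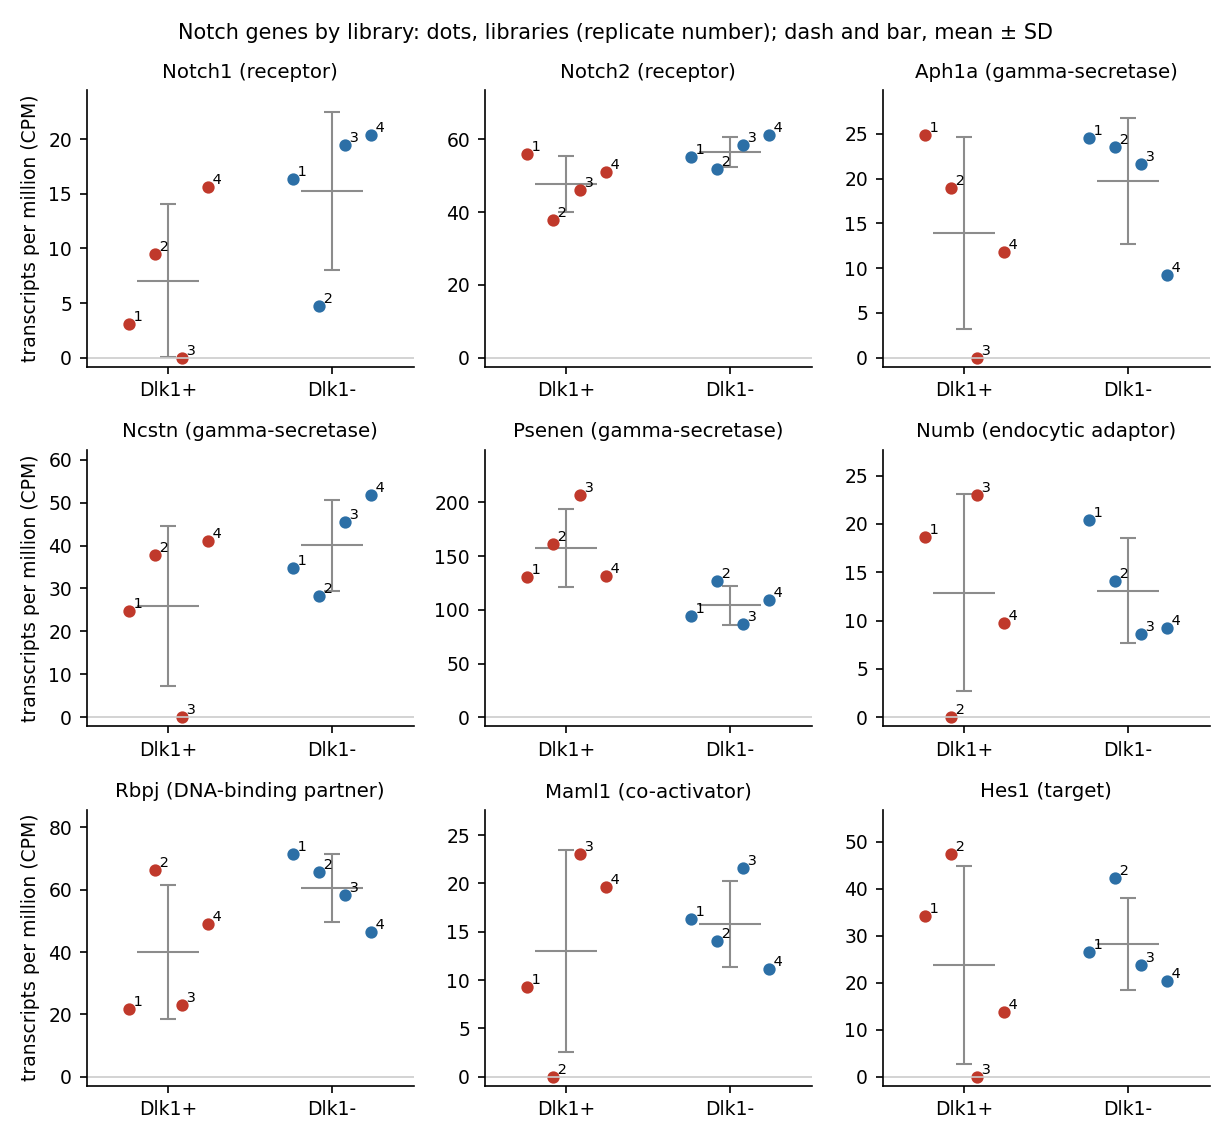
Level of the 9 genes in CPM (vertical axes, each on its own scale) in the 4 Dlk1+ and 4 Dlk1- libraries; dots are libraries with their replicate number, dashes and bars the mean ± SD. Only in the Psenen panel do the groups not overlap, from 130.5 CPM upwards in Dlk1+ and up to 126.9 CPM in the Dlk1- ones.

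Gamma-secretase is built from a presenilin with Ncstn, Aph1 and Psenen, and cuts many membrane proteins besides Notch. Psenen, which encodes the small subunit that triggers maturation of presenilin (chromosome 7, 30561863 to 30563627, minus strand), gave 42, 17, 9 and 67 UMIs in Dlk1+ and 46, 27, 40 and 59 UMIs in Dlk1- replicates 1 to 4. The levels were 130.5, 161.1, 207.4 and 131.2 CPM in the Dlk1+ libraries and 93.9, 126.9, 86.6 and 109.3 CPM in the Dlk1- ones. The groups did not overlap, which held for 4.91% of all genes tested and for 1 of the 5 tested Notch genes. The log2 fold change was 0.52 (SE 0.25, 95% CI -0.01 to 1.04) and the gene did not pass the test (limma-voom, adjusted p = 0.751). Of the 67 Psenen UMIs of Dlk1+ replicate 4, 11 came from the myeloid-marker-rich cell. Without that cell the lowest Dlk1+ library was at 119.5 CPM, below the highest Dlk1- library at 126.8 CPM, and the log2 fold change was 0.47. The groups also overlapped when libraries were scaled by their totals alone, at 106.2 CPM for the lowest Dlk1+ and 123.7 CPM for the highest Dlk1- library. In 10 settings of scaling and cell choice, the main one included, the groups stayed apart in 5. The share of cells with a Psenen UMI was read beside the levels. With all UMIs used, the mean share was 39.8% ± 7.67 in Dlk1+ and 38.1% ± 7.19 in Dlk1- libraries. In a single random draw that thinned every cell to the same number of UMIs, it was 8.99% ± 3.16 in Dlk1+ and 12.3% ± 4.54 in Dlk1- (SD, n = 4 each). No other draw was made for Psenen, so the direction may come from the draw and is not read as a reversal of the levels. The thinned shares of the groups overlapped, and their difference was not tested.

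Ncstn, the subunit that recognises substrates (chromosome 1, 172066013 to 172082795, minus strand), had 8, 4, 0 and 21 UMIs in Dlk1+ and 17, 6, 21 and 28 in Dlk1- replicates 1 to 4. The levels were 24.9, 37.9, 0 and 41.1 CPM in the Dlk1+ libraries and 34.7, 28.2, 45.4 and 51.9 CPM in the Dlk1- ones, and the groups overlapped. Its log2 fold change was -0.46 (SE 0.38, 95% CI -1.26 to 0.34; limma-voom, adjusted p = 0.852). The 0 in Dlk1+ replicate 3 again allows up to 69.1 CPM. The scaffold subunit Aph1a (chromosome 3, 95893969 to 95898288, plus strand) was not tested, with 8, 2, 0 and 6 UMIs in Dlk1+ and 12, 5, 10 and 5 in Dlk1- libraries, or 13.9 ± 10.7 and 19.7 ± 7.07 CPM (SD, n = 4 each). Its relatives Aph1b and Aph1c had 46 and 28 UMIs, a division that is uncertain because their sequences are nearly the same. Psen2 had 68 and 76 UMIs in Dlk1+ and Dlk1- cells, or 63.1 ± 25.6 and 47.2 ± 11.8 CPM (SD, n = 4 each). The groups overlapped, and the log2 fold change was 0.56 (limma-voom, adjusted p = 0.781).

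Numb (chromosome 12, 83794034 to 83921934, minus strand) was the gene with the fewest UMIs. It had 6, 0, 1 and 5 UMIs in Dlk1+ and 10, 3, 4 and 5 in Dlk1- replicates 1 to 4, and was not tested. Its levels, 12.9 ± 10.2 and 13.1 ± 5.44 CPM (SD, n = 4 each), overlapped. The 0 in Dlk1+ replicate 2 allows up to 28.4 CPM. Its relative Numbl had 12 UMIs. Itch, a ubiquitin ligase that acts with Numb on Notch, was not called (log2 fold change -1.26, limma-voom adjusted p = 0.700). Its levels were 10.5 ± 12.3 CPM in the Dlk1+ libraries and 34.96 ± 8.44 CPM in the Dlk1- ones (SD, n = 4 each). It had 18 and 56 UMIs, in 6 of the 8 libraries, and its lowest Dlk1+ level was 0. Its unadjusted p by limma-voom, 0.012, was the lowest of the tested pathway genes apart from Dlk1. It was picked as the lowest of a list, and 368 of all 5666 tested genes had an unadjusted p under 0.05 in the same fit.

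Rbpj (chromosome 5, 53466152 to 53657362, plus strand) had 7, 7, 1 and 25 UMIs in Dlk1+ and 35, 14, 27 and 25 in Dlk1- replicates 1 to 4. The levels were 21.8, 66.3, 23.04 and 48.96 CPM in the Dlk1+ libraries and 71.4, 65.8, 58.4 and 46.3 CPM in the Dlk1- ones. Dlk1+ replicate 1 was below every Dlk1- library, while replicates 2 and 4 lay among them. Replicate 3 had 1 UMI, under the 3 counts (69.1 CPM) that its depth can resolve, and cannot be placed. The log2 fold change was -0.62 (SE 0.34, 95% CI -1.33 to 0.10), and the gene did not pass the test (limma-voom, adjusted p = 0.765). Maml1 (chromosome 11, 50255634 to 50292311, minus strand) was not tested, with 3, 0, 1 and 10 UMIs in Dlk1+ and 8, 3, 10 and 6 in Dlk1- libraries, or 12.99 ± 10.4 and 15.8 ± 4.44 CPM. Maml1 had fewer UMIs than the other Mastermind genes: Maml2 had 31 in Dlk1+ and 78 in Dlk1- cells, and Maml3 25 and 37.

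Whether the target gene Hes1 differs between the sorts was the main question. Hes1 (chromosome 16, 30064384 to 30067796, plus strand, with 0 other annotated genes overlapping it) had 11, 5, 0 and 7 UMIs in Dlk1+ and 13, 9, 11 and 11 in Dlk1- replicates 1 to 4. The levels were 34.2, 47.4, 0 and 13.7 CPM in the Dlk1+ libraries and 26.5, 42.3, 23.8 and 20.4 CPM in the Dlk1- ones. Both the highest library and the 2 lowest were Dlk1+, so that the Dlk1- libraries lay within the Dlk1+ range. The 0 in Dlk1+ replicate 3, out of 38488 UMIs, allows up to 69.1 CPM by the 3-count level, more than the level of any library. The two-sided Poisson bound drawn in the plot of Hes1 by library is higher still. The 0 therefore does not place Hes1 in this library above or below the others. Poisson intervals (95%, counting error only) ran from 15.4 to 110.6 CPM in Dlk1+ replicate 2 and from 10.2 to 36.5 CPM in Dlk1- replicate 4.

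**Figure D3:**
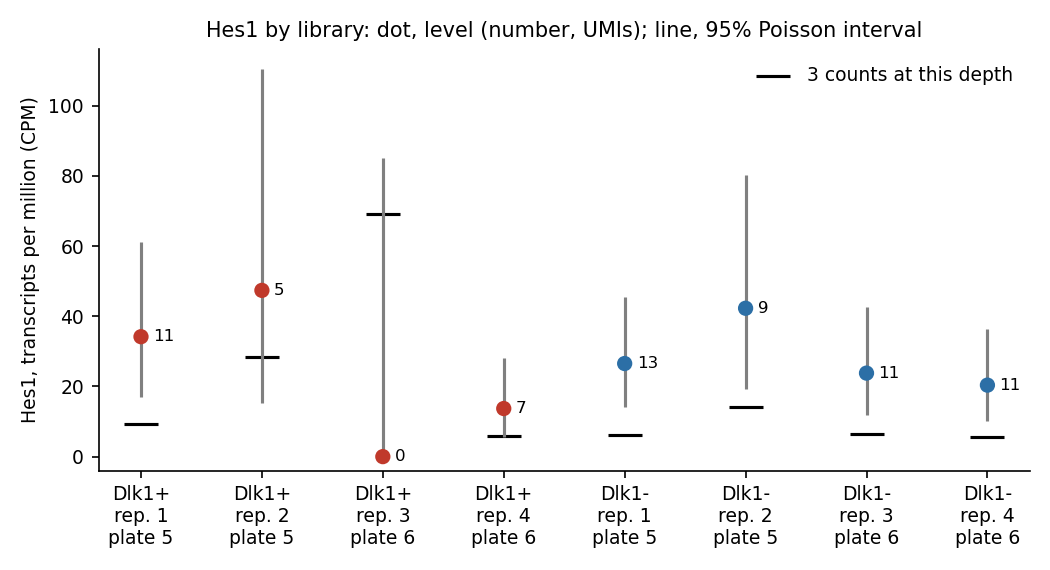
Hes1 level in CPM (vertical axis) in each library, with its UMIs beside the dot, a 95% Poisson interval as a line and the level of 3 counts at the library's depth as a dash. In Dlk1+ replicate 3 that dash lies at 69.1 CPM, above every dot; the intervals of all 8 libraries overlap.

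No difference in Hes1 between the sorts passed a test. Mean levels were 23.8 CPM (SD 21.1, n = 4) in Dlk1+ and 28.3 CPM (SD 9.69, n = 4) in Dlk1- libraries, a difference of -4.43 CPM with p = 0.743 in a two-sided exact permutation test (0.743 after adjustment over 2 tests of Hes1). The smallest p that 70 assignments of 8 libraries allow is 0.0286. In the fit across all genes the log2 fold change was -0.26 (SE 0.43, 95% CI -1.16 to 0.65; limma-voom, adjusted p = 0.932). The interval runs from 0.448 to 1.57 times the Dlk1- level, and changes within those bounds could not be told from none. The sign of the CPM difference rested on single libraries: it was 3.50 CPM without Dlk1+ replicate 3 and 0.22 CPM without Dlk1- replicate 2. The fitted log2 fold change was 0.18 without Dlk1+ replicate 4. On plate 5 Dlk1+ libraries averaged 40.8 and Dlk1- libraries 34.4 CPM, and on plate 6 they averaged 6.85 and 22.1 CPM, 2 libraries a group on each. With the plate as a term the log2 fold change was -0.19.

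In single cells Hes1 was sparse. A Hes1 UMI was seen in 45 of 541 cells, 16 Dlk1+ and 29 Dlk1-, and 17 of the 45 carried 2 or 3. That share, 37.8%, was the highest of the 9 genes, ahead of 32.1% for Psenen and 21.2% for Rbpj. With every cell thinned to 1000 UMIs, which left out 0 cells, 2, 2, 0 and 1 cells of the Dlk1+ and 3, 0, 1 and 3 cells of the Dlk1- replicates 1 to 4 had a Hes1 UMI. The mean share was 2.74% ± 3.25 in Dlk1+ and 1.84% ± 1.58 in Dlk1- libraries (SD, n = 4 each), with p = 0.743 by the same exact permutation test. These are 12 cells in all, and the direction depends on the draw: the share expected over all possible thinnings differed by -0.52 percentage points. Unthinned, the shares were 10.5%, 11.1%, 0% and 4.94% in Dlk1+ and 8.33%, 16.7%, 8.42% and 7.45% in Dlk1- libraries, at median depths of 1296 to 4862 and 4595 to 5521 UMIs. No cell type that should lack Hes1 was among the sorted cells, so no background share can be set beside these values.

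**Figure D4:**
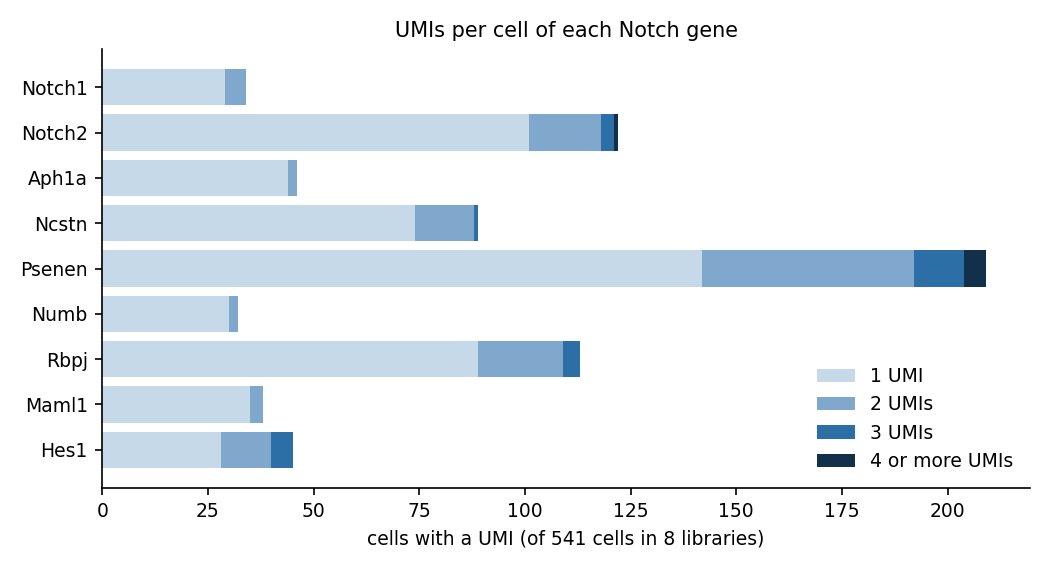
Number of cells (horizontal axis, of 541) with 1, 2, 3 or at least 4 UMIs of each of the 9 genes. Psenen was seen in 209 cells and Ncstn in 89; for Hes1, 17 of 45 cells carried more than 1 UMI.

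Each of the 9 genes was read in a minority of cells, and few cells gave UMIs of several. Whether the genes were read together more or less often than their single shares imply was not tested. At least 1 of the 9 genes had a UMI in 413 of 541 cells (76.3%), and at least 3 of them in 81 cells (14.97%). A receptor, Notch1 or Notch2, was seen in 150 cells and both in 6. A receptor together with Rbpj was seen in 40 cells, and Hes1 together with a receptor in 12. Shares of cells depend on depth: at 1000 UMIs per cell a receptor was seen in 41 cells and 0 cells held 3 of the genes.

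Within the Dlk1+ sort, Hes1 could be set beside Dlk1 RNA. At 1000 UMIs and pooled over libraries, 1 of 82 Dlk1+ cells with a Dlk1 UMI had a Hes1 UMI (1.22%), as had 4 cells without one (2.90%). In the Dlk1- sort the pooled counts were 0 of 8 and 7 of 313. The direction differed between the Dlk1+ libraries. In replicate 1 the share was 3.45% with and 1.75% without a Dlk1 UMI. It was 0% and 13.3% in replicate 2, and 0% and 2.13% in replicate 4. Replicate 3 had no Hes1 UMI. So few cells give no direction, and the difference was not tested. Hes1 RNA is also short-lived and part of many early responses, so the immediate early genes were read beside it, 12 genes such as Fos and Egr1 that sorting can induce. For this, all UMIs of a cell were used, without thinning. Cells with a Hes1 UMI had the higher median share of immediate early transcripts in 5 of the 7 libraries that held such cells. They had the higher median UMI number in 6 of 7, and a cell with more UMIs is more likely to show Hes1. The summed level of the list was 8134 to 10391 CPM in the Dlk1+ libraries and 7922 to 9393 CPM in the Dlk1- ones. The part of sorting or depth in the Hes1 values was not tested.

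The genes whose pattern over the 8 libraries was most like that of Hes1, by Pearson r of log2 (CPM + 1) among 5665 other tested genes, were Sptbn1 (r = 0.99), Tmem11 (0.99), Fam89b (0.99), Mcm6 (0.99) and Men1 (0.99). These are descriptions over 8 libraries of unequal depth, and the 0 in Dlk1+ replicate 3 weighs on them: without it r lay between 0.87 and 0.98. Ncstn ranked 1063 with r = 0.90, which was -0.58 without that library. For Rbpj r was 0.59, for Notch2 0.13 and for Psenen -0.59, and without that library these became 0.09, -0.52 and 0.41, so that the order of the Notch genes rests on it.

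Across the whole pathway, Dlk1 was the only gene that passed the test. Of all 5666 genes 2 were called, Dlk1 (log2 fold change 4.81) and Timp3 (2.40), both higher in Dlk1+, which is 0.0353%. Of the 9 Notch genes 5 were tested and 0 were called by limma-voom, with 0 at an unadjusted p under 0.05 against 368 of all genes. Of the 5, Psenen alone had a positive log2 fold change, and their median was -0.26 against -0.04 for all tested genes. A positive log2 fold change was held by 45.2% of all tested genes, and no test was made of the signs. The limma-trend fits, an alternative, shifted the median of all genes to -0.23 and -0.20 and called 0 genes. Of the other 66 pathway genes without Dlk1, 31 were tested and 0 called, 11 with a positive and 20 with a negative log2 fold change, with a median of -0.08. By role, 0 of 1 receptor, 0 of 3 receptor maturation genes, 0 of 6 cleavage genes, 0 of 8 genes of endocytosis and turnover, 0 of 7 nuclear activators, 0 of 9 corepressors and 0 of 2 target genes passed in either direction. Gata3, the most abundant target, was at 27.3 ± 32.2 and 53.3 ± 20.2 CPM in the Dlk1+ and Dlk1- groups (log2 fold change -0.93, limma-voom adjusted p = 0.789).

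**Figure D5:**
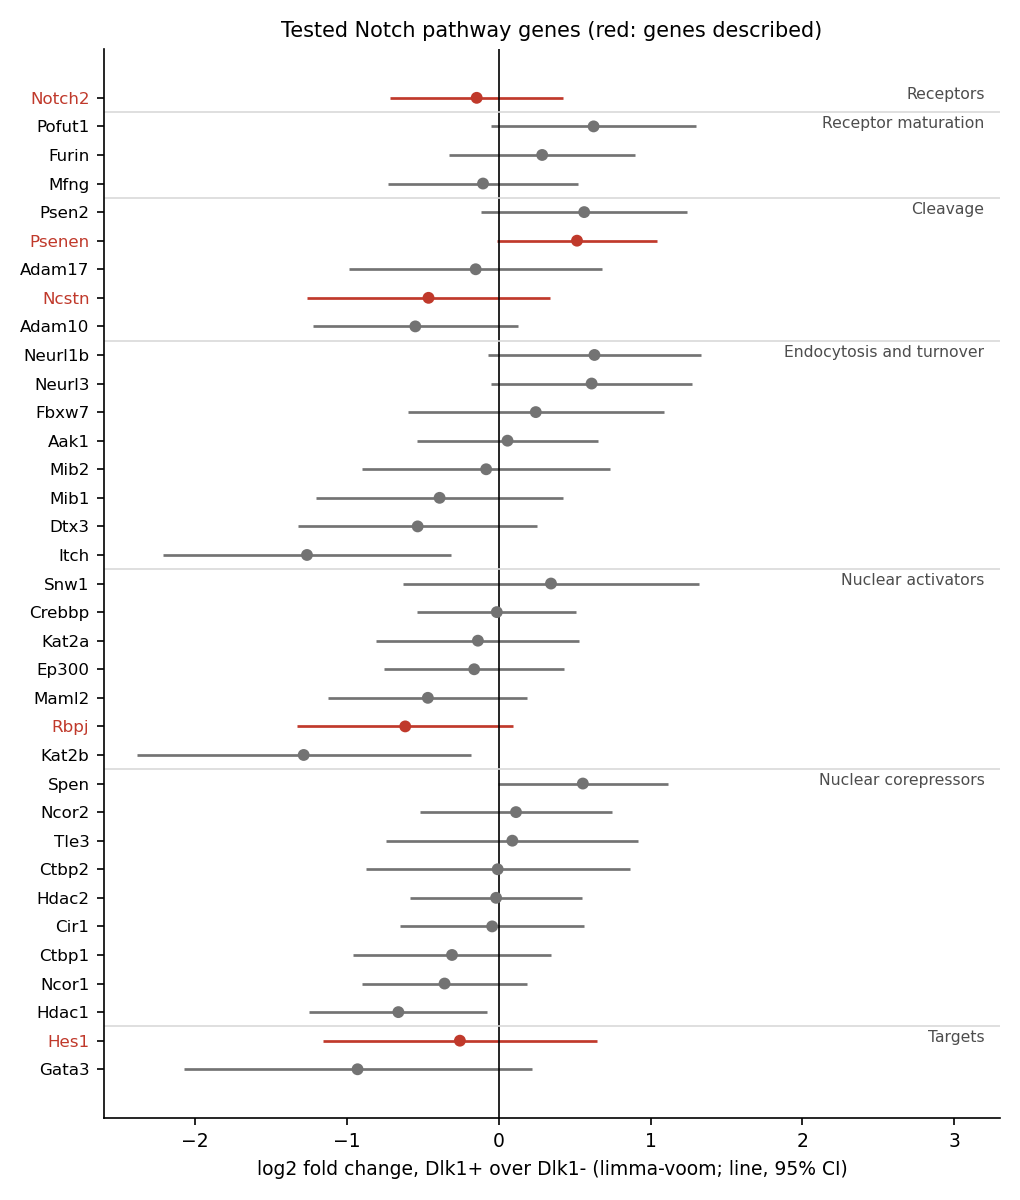
Log2 fold change of Dlk1+ over Dlk1- (horizontal axis) with its 95% confidence interval for 35 of the 37 tested pathway genes (Dlk1 and 1 gene not reported by name are left out), arranged by role; the 5 described genes are red. The intervals of all 5 include 0, from -0.62 for Rbpj to 0.52 for Psenen.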

How the data were processed

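The authors deposited estimated transcript counts per gene and cell barcode, with no depth scaling. BWA 0.6.2-r126 and the build mm10 are named in the submitters' processing notes; the annotation, read filters and use of strand are not given in the sources used here. Inverting the correction for UMI collisions gave whole UMIs (largest distance 3.64e-12 from a whole number), used for shares of cells and thinning. Because the unit could not be verified automatically, no count model was run.

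Cells were barcodes 1 to 96 in Dlk1+ and 97 to 192 in Dlk1- libraries with at least 1000 transcripts, without barcodes 17, 20 to 24 and 29 to 32; the group and the set of barcodes cannot be told apart. No doublet caller was run. Transcripts were summed per library, rounded and tested with limma-voom (limma 3.58.1, R 4.3.3) with factors by trimmed mean of M-values (TMM), two-sided, Benjamini-Hochberg over all genes, FDR 0.05. Genes needed, in 4 or more libraries, the CPM that 10 counts give in a library of median size, and 15 counts in all. Permutation tests went through all 70 assignments in Python 3.11.15 with NumPy 2.4.6, and Poisson intervals used SciPy 1.17.1. Floors are 3 counts per library; intervals and floors cover counting error only. Positions are those of GENCODE mouse release M21 on GRCm38, the assembly also called mm10.

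All 9 genes were described; of the pathway list, the 3 most abundant of each role, those called, the ligands and receptors were to be named, and of likeness to Hes1 the 5 genes of highest r. Itch, Numbl, Aph1b, Aph1c, Maml2, Maml3 and the low target genes were named outside this rule. Some genes of the lists are counted but not reported here by name. The members and lists were chosen with earlier results of these data known. TMM factors were first taken relative to the totals of tested genes; this was changed to library totals after the first fit had been seen, and the first form is kept as an alternative. Other alternatives were scaling, filters, cell choice, blocks, thinning and leaving out each library.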

Additional observations from a re-analysis of the deposited data

Results flagged for a closer look

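Transcripts of the Notch genes also appeared outside the cells analysed. Barcodes on which no cell was placed held 8 UMIs of the 9 genes, of 23663 UMIs in the 8 libraries, which is 338.1 CPM against 357.0 CPM in the kept cells, both over plain totals. The 10 barcodes left out held 9 UMIs of the 9 genes in the Dlk1- libraries, of 25978 UMIs, of which 7 were Psenen and 2 Ncstn. Hes1 had 0 UMIs in both, where its level in the kept cells, 25.7 CPM, would give less than 1 UMI, so the 0 says nothing of its background. No library stood apart from the other 3 of its group in any of the 9 genes by Dixon's test, in 18 groups looked at.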

How the results depend on the processing

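None of the 5 tested Notch genes was called under any alternative that gave a value; their adjusted p by limma-voom or limma-trend ran from 0.408 upwards. Notch2, Ncstn and Rbpj kept a negative and Psenen a positive log2 fold change under all of theirs. Hes1 fell under the low-count filter in 3 of 23 alternatives; its log2 fold change was negative in 19 of the other 20, from -1.16 to 0.18 over all, and from -0.57 to 0.18 when 1 library was left out. The Hes1 CPM difference ran from -12.8 to 3.50 CPM when 1 library was left out, the sign changing without Dlk1+ replicate 3 and, at 0.22, without Dlk1- replicate 2.

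The Hes1 share at 1000 UMIs had no stable direction. Its difference of 0.90 percentage points became -1.02 with a second random draw, -0.55 without Gm10800 and Gm26870, -0.034 with cells of at least 2000 transcripts and -0.52 for the share expected over all thinnings, an alternative chosen after seeing the data. It was -3.25 at 2000 UMIs, which left 4 cells in Dlk1+ replicate 3, and -3.59 unthinned, and ran from -0.66 to 1.81 when 1 library was left out. The draw rests on 12 cells.

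The 2 genes called became 0 with both limma-trend fits, 1 with the replicate block, 1 with cells of at least 2000 transcripts and 4 with the 10 barcodes kept. Without a filter on low counts 3 genes were called, 2 higher and 1 lower in Dlk1+. Leaving out 1 library gave 1 to 19; the 19, without Dlk1+ replicate 4, were 5 higher and 14 lower in Dlk1+, and the cause was not tested. Same-numbered libraries correlated by 0.0298 to 0.0410 in their deviations, under 0.1, so the numbers were not taken as pairs; each library correlated best with its own number, a hint from the data only. With the replicate block the Hes1 log2 fold change was -0.17, and no Notch gene changed its call. TMM factors in their first form gave 2 calls and -0.26 for Hes1. In Dlk1+ replicate 3 every one of the 9 genes but Psenen was under 3 UMIs.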
